A study of Mus musculus with 2 samples.

Results

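Alx1 and Alx4 were followed through single-cell transcriptomes of the mouse upper face. They were chosen by symbol and are 2 of the 27998 genes in the deposited gene tables. Both encode paired-type homeodomain transcription factors. During facial development they are expressed in cranial neural crest-derived mesenchyme, most of all around the eye and the nasal prominences, and they act in part redundantly. Loss of either factor in mouse or human disturbs the midface and skull, with clefts that are grouped as frontonasal dysplasias.

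The tissue was the lambdoid junction, where the nasal and maxillary prominences meet to form the upper lip and primary palate, at E11.5. The study held 2 libraries, 1 per genotype, both on the C57BL/6J strain: wild-type embryos, and embryos with Crect, a Cre recombinase transgene for surface ectoderm, together with the ROSA26-lacZ reporter. Each library pooled the dissected, trypsin-dissociated tissue of 4 to 5 embryos, so a library value is an average over a pool. No test between the genotypes was possible.

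The wild-type library held 126638790 unique molecular identifiers (UMIs) in 7966 barcodes and the Crect lacZ library 127763619 in 6894, leaving out transgene counts. With at most 10% of UMIs from mitochondrial genes, 7909 and 6687 cells were kept, and 71 barcode sequences occurred among the kept cells of both libraries. Clusters were named from marker genes. Alx1, Alx4 and the gene lists used below were left out of the genes that were clustered on. Mesenchyme-like cells, with all 7 of their markers detected, made up 78.5% of wild-type and 82.1% of Crect lacZ cells. Ectoderm-like, endothelium-like, erythroid-like, macrophage-like and crest glia-like cells were also found, and all 9 ectoderm, 6 endothelium and 6 erythroid markers were detected in their classes.

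In mouse build GRCm38 (mm10), with the GENCODE vM21 annotation, Alx1 (ENSMUSG00000036602) lies on the minus strand of chromosome 10 from 102998707 to 103030215. Alx4 (ENSMUSG00000040310) lies on the plus strand of chromosome 2 from 93642384 to 93681339. The 3' part of Alx4 overlaps the Ext2 gene on the other strand, but their exons share 0 bases. The non-coding gene Gm17028 shares 243 of the 5756 exonic bases of Alx1, all outside the last exon of Alx1-201. Gm17028 itself had 52 UMIs in wild-type and 22 in Crect lacZ mesenchyme-like cells.

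Among 6 named classes, both genes were most abundant in mesenchyme-like cells. In mesenchyme-like cells Alx1 was measured at 691 CPM, the UMIs of a gene per 1000000 UMIs of a group (95% Poisson interval 685 to 696) in the wild-type library and 509 (504 to 513) in the Crect lacZ library. Ectoderm-like cells held 71.2 (67.6 to 75.02) and 68.1 (64.1 to 72.3) CPM of Alx1. Every mesenchyme-like value was above every ectoderm-like value. Alx4 was measured at 62.9 (61.3 to 64.6) and 49.9 (48.5 to 51.3) CPM in mesenchyme-like cells. In ectoderm-like cells it was 13.4 (11.9 to 15.1) and 9.67 (8.20 to 11.3), again with no overlap. All intervals on levels and shares cover counting error only.

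Summed counts per library and class were compared with the quasi-likelihood test of edgeR, blocking on library and adjusting over 15253 genes by Benjamini and Hochberg. Alx1 was 8.40-fold higher in mesenchyme-like than in ectoderm-like cells (log2 3.07 ± 0.09 SE, adjusted p = 6.95e-08). Alx4 was 4.81-fold higher (log2 2.27 ± 0.08 SE, adjusted p = 2.26e-07). Both passed the call, an adjusted p under 0.05 with a fold of 2 or more, as did 7.74% of all genes tested in this direction. Predicted doublets, droplets scored as holding more than 1 cell, made up 6.44% and 9.49% of ectoderm-like cells. Without them the Alx1 fold was 13.4 and the Alx4 fold 6.42. Grouping and testing used the same cells here and below, which makes p-values between groups of cells too small.

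**Figure D1:**
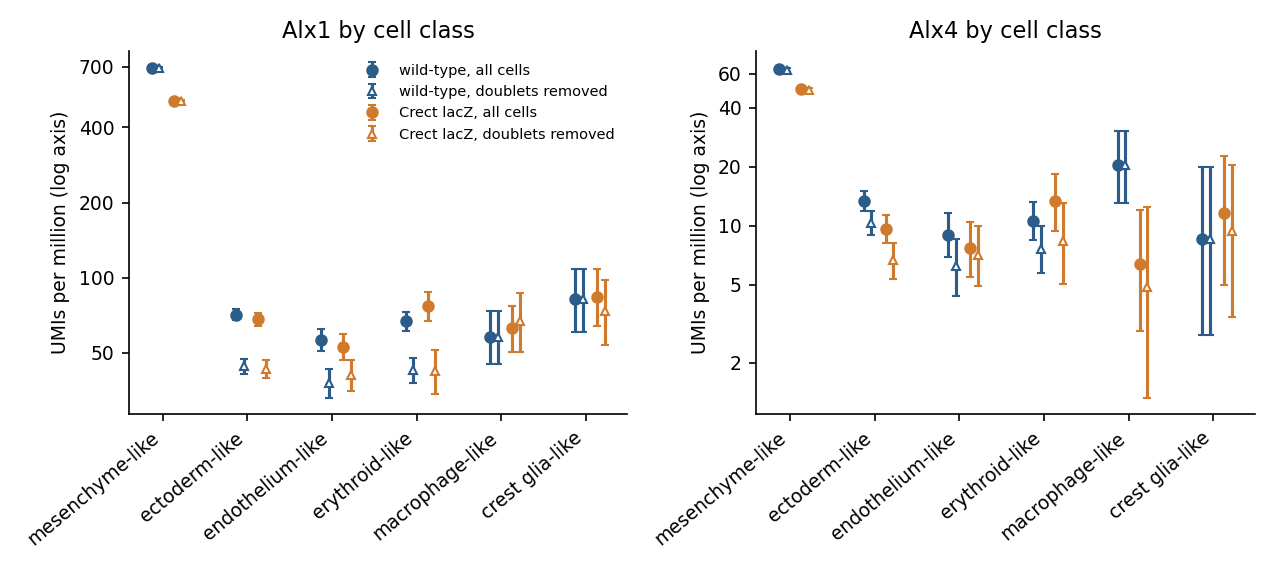
Levels of Alx1 and Alx4 in CPM, on log axes, for 6 cell classes of the wild-type (blue) and Crect lacZ (orange) libraries; bars are 95% Poisson intervals and open triangles leave out predicted doublets. Mesenchyme-like cells lie at 509 and 691 for Alx1 and at 49.9 and 62.9 for Alx4, above every other class, and removing doublets lowers the ectoderm-like values.

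Erythroid-like cells, which should lack both genes, served as a measure of background. They held 67.0 (61.4 to 72.9) and 76.9 (66.9 to 87.9) CPM of Alx1 and 10.6 (8.48 to 13.2) and 13.4 (9.40 to 18.4) CPM of Alx4. These intervals overlapped those of ectoderm-like cells in both libraries, so ectodermal expression above the erythroid-like level was not detectable. Endothelium-like cells held less Alx1, 56.2 (50.7 to 62.1) and 53.0 (46.9 to 59.6) CPM, with no overlap with ectoderm-like cells. Their Alx4, 9.02 (6.90 to 11.6) and 7.68 (5.49 to 10.5), stood apart only in the wild-type library. Without predicted doublets the Alx1 intervals of endothelium-like and ectoderm-like cells overlapped in both libraries, while wild-type Alx4 stayed apart. The reading thus depended on the class taken as background. Alx1 in ectoderm-like cells stood at 10.3% and 13.4% of its mesenchyme level, and in erythroid-like cells at 9.70% and 15.1%. Alx4 stood higher, at 21.3% and 19.4% in ectoderm-like cells and 16.9% and 26.7% in erythroid-like cells. The 7 mesenchyme markers, among them the collagen genes Col1a1, Col1a2 and Col3a1, stood at a median of 13.3% and 15.2% of their mesenchyme level in the same ectoderm-like cells. The highest marker stood at 15.9% and 16.4%, below Alx4. Without predicted doublets Alx4 in ectoderm-like cells was at 16.6% and 13.5%, and the highest marker at 11.7% and 10.3%. The cause was not tested. After each cell was thinned at random to 3000 UMIs, 81.7% and 72.5% of mesenchyme-like cells still had an Alx1 UMI. The share was 13.2% and 15.2% in ectoderm-like cells, 14.4% and 20.3% in endothelium-like cells and 8.27% and 11.8% in erythroid-like cells. For Alx4 the mesenchyme-like shares were 18.0% and 14.1%. They were 3.82% and 2.10% in ectoderm-like cells and 3.15% and 4.58% in erythroid-like cells. Median depths were 13510.5 and 17463 UMIs per mesenchyme-like cell, 15447 and 17193 per ectoderm-like cell and 30626.5 and 14147 per erythroid-like cell.

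Alx4 took a larger share of the low counts in ectoderm-like and erythroid-like cells than of the counts in the mesenchyme. Of all UMIs from the 2 genes, Alx4 supplied 8.35% (Clopper-Pearson interval 8.14 to 8.56) in wild-type and 8.94% (8.70 to 9.18) in Crect lacZ mesenchyme-like cells. In ectoderm-like cells it supplied 15.9% (14.1 to 17.7) and 12.4% (10.6 to 14.4). Erythroid-like cells were similar, at 13.7% (11.1 to 16.7) and 14.8% (10.6 to 19.8). Ext2, which overlaps Alx4 on the opposite strand and encodes a heparan sulfate polymerase, had 29.8 and 35.1 CPM in ectoderm-like cells and 6.46 and 6.13 in erythroid-like cells. Its part in the Alx4 counts was not tested, and the sources used here do not say whether counting used strand. This share is used only to compare groups of cells, since 3' counts of different genes are not on 1 scale.

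Within the mesenchyme, detection of Alx1 was near complete and that of Alx4 was limited by depth. Without thinning, 98.2% of wild-type and 96.8% of Crect lacZ mesenchyme-like cells had an Alx1 UMI, with a median of 9 and 8 per cell and a highest value of 48 and 46. Alx4 was seen in 55.8% and 54.6%, with a median of 1 UMI per cell. Both transcripts were seen together in 55.0% and 53.1%. After thinning to 3000 UMIs the joint share fell to 14.8% (14.0 to 15.7) and 10.5% (9.74 to 11.4), against 0.787% and 1.31% in erythroid-like cells.

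Detecting one transcript said little about the other. In the thinned wild-type cells, Alx4 was found in 18.1% (17.1 to 19.2) of Alx1-positive and 17.6% (15.4 to 20.0) of Alx1-negative mesenchyme-like cells. In the Crect lacZ cells the shares were 14.5% (13.4 to 15.7) and 12.9% (11.2 to 14.7). The intervals overlapped in both libraries. At 5000 UMIs the Alx1-positive and Alx1-negative shares were 27.4% and 22.7% in wild-type cells and 22.2% and 19.4% in Crect lacZ cells. The gaps were wider there, with intervals that still overlapped. Alx1-negative cells were not free of Alx1, with 361 and 299 CPM unthinned, against 766 and 588 in Alx1-positive cells. Within the 11 mesenchyme sub-clusters described next, at 3000 UMIs, the Alx4 share was higher in Alx1-positive cells in 4 wild-type and 7 Crect lacZ sub-clusters. In 0 did the intervals stand apart. Alx1-negative cells were few within sub-clusters and their intervals wide, up to 0.840 to 90.6% in wild-type sub-cluster 11, so that count could resolve little. Measured as levels, Alx4 was 64.7 against 54.8 CPM in Alx1-positive and Alx1-negative wild-type cells, and 50.7 against 47.9 in Crect lacZ cells. That difference was 1.10-fold (log2 0.14 ± 0.04 SE, edgeR adjusted p = 0.00433), from a fit that estimated no spread of its own for single genes.

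Clustering the mesenchyme-like cells again gave 11 sub-clusters, of which 10 had at least 50 cells in each library. Alx1 and Alx4 were present in all of them at graded levels. Over those 10, Alx1 ran from 541 to 922 CPM in the wild-type library, a 1.71-fold range, with a median of 643. In the Crect lacZ library it ran from 304 to 694, a 2.29-fold range, with a median of 469. Alx4 ran from 44.0 to 80.4 in the wild-type and from 33.9 to 69.0 in the Crect lacZ library, ranges of 1.82-fold and 2.04-fold. When sub-clusters were put in order of level, 5 of the 9 neighbouring pairs had overlapping intervals for Alx1 in each library. For Alx4, 8 wild-type and 9 Crect lacZ pairs overlapped, so only the ends of that order were resolved.

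Sub-cluster 3 had the most Alx1 in both libraries, 922 (901 to 944) and 694 (681 to 708) CPM. Its leading genes included Calb2, a calcium-binding protein gene, Gata2, a zinc finger transcription factor gene, and, further down, Pax7. Sub-cluster 9, a nasal-like group led by Emx2, Smoc2 and Hey2, had the least, 541 (522 to 559) and 304 (291 to 316). Sub-cluster 10, with Foxp2, Igf1 and Irx3 among its leading genes, came next with 558 (541 to 575) and 403 (387 to 419). For Alx4 the same groups were not low. Sub-cluster 9 had 69.7 (63.3 to 76.6) and 58.5 (53.1 to 64.2) CPM and sub-cluster 10 had 78.1 (71.8 to 84.9) and 68.5 (62.1 to 75.4).

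Among the same 10 sub-clusters, the 2 maxillary-like ones had the lowest Alx4 levels. Sub-cluster 4, led by Hist1h2bc, Cxcl14, Cdkn3, Lhx8, Ccnb2, Shox2 and Asb4, had 44.0 (40.1 to 48.2) and 37.4 (33.5 to 41.7) CPM of Alx4. Sub-cluster 7, led by Osr2, Asb4 and Shox2, had 50.7 (46.0 to 55.7) and 33.9 (30.1 to 38.1). Alx1 was 575 and 445 in sub-cluster 4 and 639 and 412 in sub-cluster 7, in the lower part of its range. The nasal-like sub-cluster 5, led by Gsc, Fam150b and Osr1, had high Alx1 (776 and 586) but low Alx4 (52.7 and 43.9). In sub-cluster 1, led by Cxxc4, Rerg and Pmaip1, both were high, with 824 and 559 for Alx1 and 75.1 and 69.0 for Alx4.

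**Figure D2:**
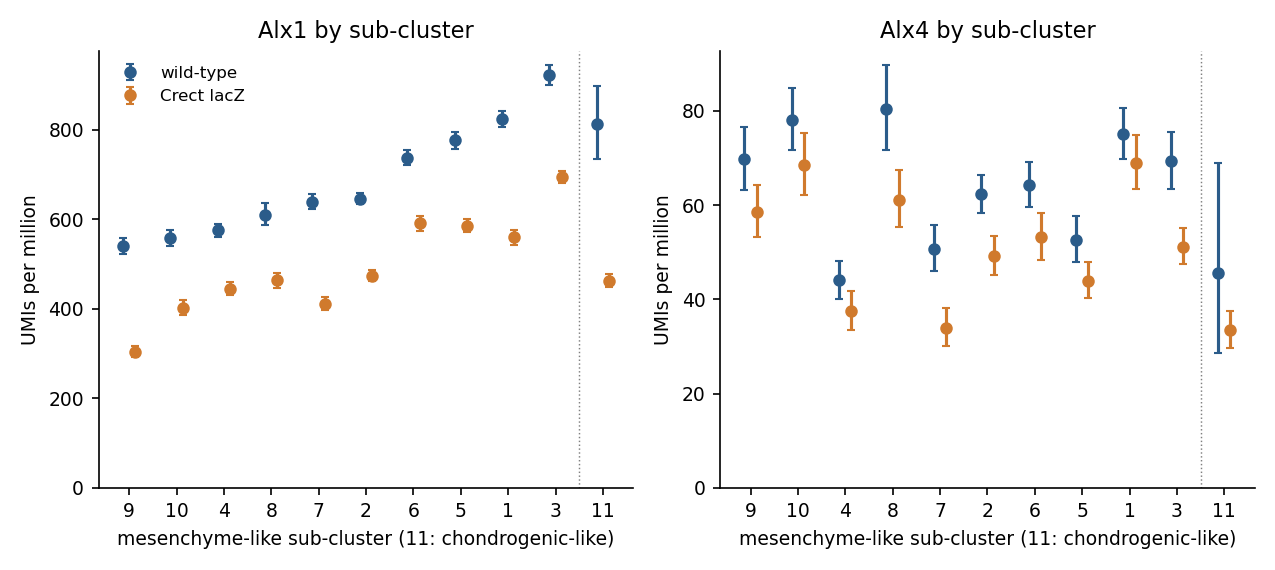
Alx1 and Alx4 in CPM in the 11 mesenchyme-like sub-clusters, ordered by wild-type Alx1 with the chondrogenic-like sub-cluster 11 set apart; blue is wild-type, orange is Crect lacZ and bars are 95% Poisson intervals. Alx1 runs from 541 to 922 in the wild-type library along this order, while Alx4 follows another order, with 69.7 and 78.1 in sub-clusters 9 and 10 and 44.0 in sub-cluster 4.

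The chondrogenic-like sub-cluster 11, led by Flrt2, Sox9 and Lgr5, was almost wholly from 1 library, with 35 wild-type and 563 Crect lacZ cells. Its levels in the Crect lacZ library were 463 (448 to 477) for Alx1 and 33.5 (29.7 to 37.6) for Alx4. The wild-type values were 813 (734 to 897) and 45.5 (28.5 to 68.9), from 22 Alx4 UMIs. Sub-cluster 8, in which Alx4 was highest in the wild-type library at 80.4 (71.7 to 89.7), had a median depth of only 0.526 times that of its libraries. One small cluster stayed unnamed. It held 39 wild-type and 14 Crect lacZ cells, was led by Alx1, and had 671 (576 to 776) and 653 (500 to 837) CPM of Alx1, but it fell short of the score needed to be called mesenchyme-like.

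The 2 genes did not share a pattern across the sub-clusters. The Pearson correlation of their log2 levels, centred within each library, was 0.02 over 20 points (10 sub-clusters in 2 libraries) and 0.06 over 18 points without the low-depth sub-cluster 8. It was 0.07 in the wild-type and -0.02 in the Crect lacZ library. The points share libraries and differ in depth, so the value is a description. The Alx4 share of their summed UMIs comes from the same counts, so it restates these levels and is no separate check. It was 6.99% (6.42 to 7.58) and 6.87% (6.38 to 7.37) in sub-cluster 3 and 6.35% (5.81 to 6.94) and 6.97% (6.41 to 7.57) in sub-cluster 5. In sub-cluster 9 it was 11.4% (10.4 to 12.5) and 16.2% (14.8 to 17.6), and in sub-cluster 10 it was 12.3% (11.3 to 13.3) and 14.5% (13.3 to 15.9). The maxillary-like sub-clusters were near sub-clusters 3 and 5, at 7.11% and 7.76% in sub-cluster 4 and 7.35% and 7.61% in sub-cluster 7. The low-depth sub-cluster 8 had 11.6% and 11.7%.

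**Figure D3:**
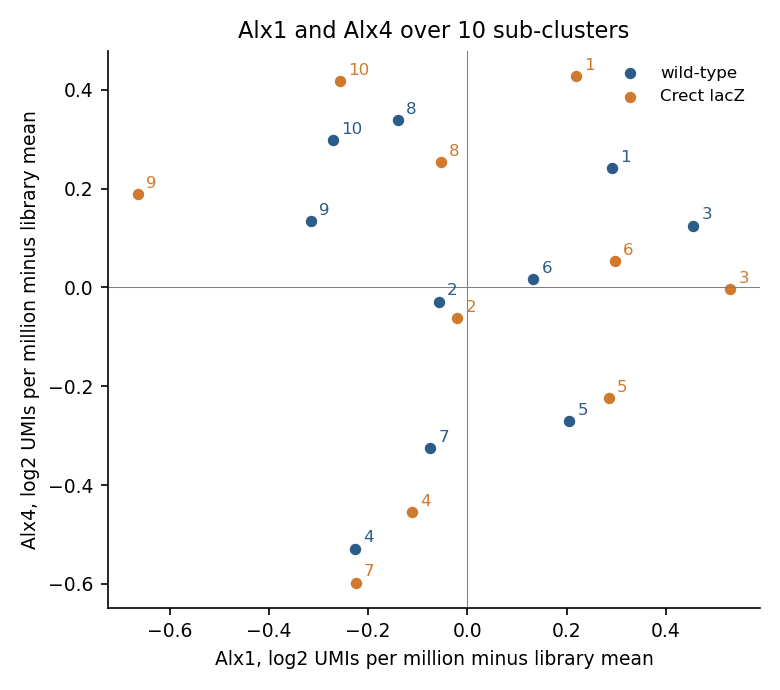
Each point is 1 of 10 mesenchyme-like sub-clusters, numbered, in the wild-type (blue) or Crect lacZ (orange) library, placed by the log2 level of Alx1 (x axis) and Alx4 (y axis) minus the mean of its library. Sub-clusters 9 and 10 lie at low Alx1 and high Alx4, sub-cluster 5 at high Alx1 and low Alx4, and the correlation over the 20 points is 0.02.

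Different genes tracked each member over these sub-clusters. Among 5888 genes with at least 20 CPM, those closest to Alx1 included Aes, Id3, Dpep1, Fcgrt, Pmaip1, Ssbp4 and Cxxc5, with correlations from 0.82 to 0.89. Aes encodes a Groucho-related corepressor and Id3 an inhibitor of basic helix-loop-helix factors that responds to Bmp signals. Those least like Alx1 included 5730455P16Rik, Bcl11a, Acly and Adgrl2, from -0.83 to -0.73, of which Acly encodes an enzyme that supplies acetyl-CoA for lipid synthesis. The 8 closest to Alx4 were Rell1, Cacna1g, Specc1, Ezh2, Gas1, Zfhx3, Ankrd44 and Dnm3, from 0.81 to 0.87. Ezh2 encodes the histone methyltransferase of Polycomb repressive complex 2 and Gas1 a Hedgehog co-receptor. The 5 least like Alx4 were Npm3, Uchl5, Atp5g2, Nelfb and Rpl18, from -0.86 to -0.79. Without sub-cluster 8 the same genes ranged from 0.83 to 0.91 and from -0.86 to -0.73 for Alx1, and from 0.80 to 0.88 and from -0.85 to -0.76 for Alx4. All were picked as extremes among 5888 genes on these points, so strong correlations follow in part from the choice. Leaving out sub-cluster 8 reuses most of the points and is no independent check. Pax3, looked up after these values were seen, had a correlation of 0.74 with Alx4 and -0.24 with Alx1. The same look-up gave 0.39 and 0.26 for Pax7 and 0.07 and 0.26 for Gsc, so the nasal genes did not all part the 2 members.

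Nasal and maxillary mesenchyme were next compared by transcripts that mark them. Pax3 and Pax7 encode paired-box factors of the nasal side, and Lhx6 and Lhx8 encode LIM-homeodomain factors of the maxillary side. Cells with a Pax3 or Pax7 UMI and none of Lhx6 or Lhx8 numbered 2228 and 1969, and cells of the opposite kind 886 and 938. A further 46.1% and 35.2% of mesenchyme-like cells had both kinds of transcript. Alx1 was 716 (707 to 726) against 610 (596 to 624) CPM in the wild-type library and 522 (515 to 530) against 476 (465 to 487) in the Crect lacZ library. Alx4 was 68.3 (65.3 to 71.4) against 50.5 (46.5 to 54.6) and 54.8 (52.4 to 57.4) against 42.2 (39.1 to 45.5). The Pax-gated cells were higher for both genes in both libraries, with no overlap of intervals within a library. Wild-type cells with neither kind of transcript had more Alx1 than either gated group, 809 (772 to 846) CPM. Crect lacZ cells with neither kind lay between the gated groups, at 497 (482 to 512). Alx4 in the cells with neither kind was 56.8 (47.5 to 67.4) and 38.8 (34.7 to 43.2).

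The differences between Pax- and Lhx-gated cells were small. Alx1 was 1.14-fold higher in Pax-gated cells (log2 0.19 ± 0.03 SE, edgeR adjusted p = 4.26e-06 over 13463 genes) and Alx4 1.33-fold higher (log2 0.41 ± 0.06 SE, adjusted p = 2.00e-08). Both passed an adjusted p under 0.05, as did 8.92% of genes in this direction, and neither reached the 2-fold call that 2.18% of genes passed. Without the library term the edgeR adjusted p was 0.9998 for Alx1 and 0.472 for Alx4, so both calls rest on comparing cells within a library. Gsc, Emx2 and Shox2 moved far more across the same gate. Shox2, a short-stature homeobox gene, had a log2 change of -4.03, while Gsc was higher by 3.32 and Emx2 by 3.87. Those 3 were picked after their values were seen.

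Gates on other transcripts gave ratios of gated to remaining cells that were in part opposite to the Pax and Lhx comparison. Cells with a Shox2 UMI had 0.756 and 0.753 times the Alx1 level of the other mesenchyme-like cells, and 0.776 and 0.775 times the Alx4 level, in the wild-type and Crect lacZ libraries. Both genes were lower in Shox2-positive cells by similar proportions in each library. Cells with Gata3 and Msx2 transcripts had more of both, 1.24 and 1.30 times for Alx1 and 1.16 and 1.21 times for Alx4. Cells with Emx2 and Hey2 transcripts went opposite ways, 0.868 and 0.656 times for Alx1 but 1.14 and 1.15 times for Alx4. The Alx4 part of that was at the edge of counting error, with intervals of 62.6 to 81.0 and 49.9 to 65.2 CPM against 62.6 and 49.6 CPM in the other cells. Cells with Lhx8 and without Shox2 were above the rest, at 1.14 and 1.15 times for Alx1 and 1.08 and 1.10 times for Alx4. Cells with a Gsc UMI had 1.11 and 1.06 times the Alx1 level and 1.07 and 0.963 times the Alx4 level of the rest. Gated cells were mostly deeper than average, with a median of 16025 and 20739 UMIs for Shox2.

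**Figure D4:**
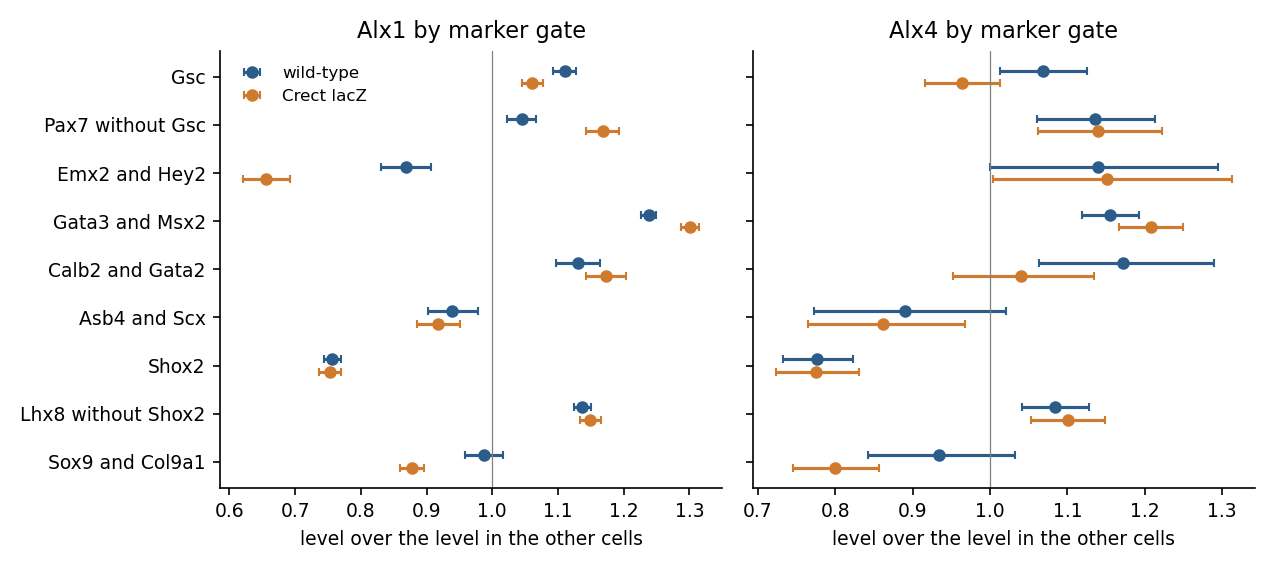
Level of Alx1 and Alx4 in mesenchyme-like cells that carry the named transcripts, divided by the level in the other mesenchyme-like cells, for the wild-type (blue) and Crect lacZ (orange) libraries; bars scale the 95% Poisson interval of the gated level. Shox2-positive cells lie near 0.75 to 0.78 for both genes, and Emx2- and Hey2-positive cells lie below 1 for Alx1 (0.868 and 0.656) and above 1 for Alx4 (1.14 and 1.15).

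To see which other genes went with the pair, cells with both transcripts after thinning (921 wild-type and 579 Crect lacZ cells) were compared with cells with neither (935 and 1314). In unthinned counts the cells with neither still held 348 and 299 CPM of Alx1 and 40.1 and 38.8 of Alx4. Double-positive cells held 784 and 591 CPM of Alx1 and 135 and 104 of Alx4. The groups are thus cells with more and less of the pair, and the gate itself set that gap. Of 12704 genes tested with edgeR, 406 were higher (3.2%) and 389 lower (3.06%) in double-positive cells at an adjusted p under 0.05. Only 32 (0.252%) also reached 2-fold, 14 higher (0.11%) and 18 lower (0.142%), leaving out Alx1 and Alx4, and each of those averaged 8.32 CPM or less. The fit estimated no spread of its own for single genes (infinite prior degrees of freedom). Without the library term 0 genes passed at any fold (75 higher and 64 lower at an unadjusted p under 0.05), and DESeq2 passed 45 and 38.

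Among 23 tested genes of nasal and frontonasal patterning, 7 rose and 5 fell in double-positive cells, with a median log2 change of 0.02 against 0.00 for all genes. The genes named from this comparison were chosen after their values were seen. Msx2, a homeobox target of Bmp signalling, was measured at 221 against 139 CPM in wild-type and 154 against 99.3 in Crect lacZ cells, a 1.55-fold rise (edgeR adjusted p = 6.18e-54). Gata3, a zinc finger factor gene, stood at 226 against 132 and 220 against 161. Gata2, Pax7, Prrx2, Msx1 and Gsc also rose, with log2 changes from 0.63 for Gata2 to 0.28 for Gsc. Emx2, an empty-spiracles homeobox gene, fell from 13.7 to 8.61 and from 15.4 to 8.71 CPM. Foxd1, Nr2f1 and Prrx1 also fell. Pax3 was at 227 against 217 and 134 against 133 (adjusted p = 0.837). DESeq2 passed Gata2, Gata3, Msx1, Msx2 and Prrx2.

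Of 16 first arch and maxillary genes tested, 7 fell, 3 rose and 6 did not pass, with a median of -0.26; among all genes 3.06% fell and 3.2% rose. Lhx6 stood at 2.77 against 6.23 and 4.31 against 9.14 CPM, a 2.19-fold fall (edgeR adjusted p = 5.37e-08). Barx1, a homeobox gene of odontogenic mesenchyme, fell 2.14-fold and Dlx2, a distal-less homeobox gene of the arches, 2.07-fold. Among the genes of all 12 lists these 3 passed the 2-fold call, and all were scarce. The more abundant Shox2 was 33.7 against 60.2 and 21.4 against 31.6, and Asb4 38.0 against 63.1 and 43.9 against 70.3. Osr2 and Lhx8 fell as well, and DESeq2 passed Asb4, Lhx8, Osr2 and Shox2. Calb2 rose, at 27.2 against 10.6 and 26.9 against 19.4. Dlx5 and Osr1 also passed as higher, although Osr1 was lower in the wild-type library (3.61 against 4.85).

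Signalling genes were taken pathway by pathway. In the Bmp and Tgf-beta list 9 of 19 rose and 1 fell, with a median of 0.24. Id1, Id2 and Id3, direct Bmp targets, rose by 0.24, 0.26 and 0.28 on the log2 scale and passed with DESeq2 too. Id3 stood at 1181 against 956 and 911 against 746 CPM. Bmper, a secreted Bmp modulator gene, rose by 0.91 and Fst, which encodes the activin antagonist follistatin, fell by 0.77. Of these, DESeq2 passed Fst but not Bmper. In the Hedgehog list 1 of 12 rose and 2 fell, with a median of 0.04. The pathway readouts Ptch1 and Gli1 fell by 0.48 and 0.42, while Gas1 rose by 0.27. Ptch1 and Gas1 passed with DESeq2, and Gli1 did not. In the Wnt list 2 of 23 rose (Rspo2 by 0.58 and Wnt5a by 0.43) and 4 fell (Wnt11, Frzb, Sfrp2 and Lef1), with a median of -0.05. Rspo2, Wnt5a, Frzb and Sfrp2 passed with DESeq2, and Wnt11 and Lef1 did not. Aldh1a2, which makes retinoic acid, rose by 0.89 from low levels, 4.84 against 2.24 and 11.3 against 6.36 CPM. Of 13 Fgf genes 1 rose and 2 fell (median -0.11), and of 7 cartilage genes 1 fell (median -0.11). Among 12 genes of retinoic acid metabolism and response, Aldh1a2 and Crabp2 rose and Dhrs3 fell (median 0.04). DESeq2 passed 0 genes of these 3 lists. Of 9 paired-type homeobox genes 3 rose and 2 fell (median 0.11), and of 8 immediate early genes 2 rose and 1 fell (median 0.26). DESeq2 passed Prrx2 as higher and Shox2 as lower in the first of these lists and Jun as higher in the other.

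Cell cycle genes moved with the same gate. Of 15 G2 and M phase genes 14 rose, with a median of 0.31, and of 15 S phase genes 13 fell, with a median of -0.22. With DESeq2, 10 of the G2 and M phase genes and 1 of the S phase genes (Ung) passed. Top2a, a topoisomerase gene of late S to M phase, stood at 793 against 626 and 539 against 438 CPM. Ung, a uracil-DNA glycosylase gene, stood at 40.4 against 67.4 and 35.3 against 49.4. Doublet shares were 1.52% against 0.749% and 4.84% against 5.02%, and median depths 13162 against 14011 and 17394 against 17771 UMIs. The part of the cell cycle in the other changes was not tested.

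The gate on both transcripts could be split, as an addition made after these values were seen. With cells gated on Alx1 alone, 479 genes rose (3.27%) and 557 fell (3.81%) of 14627, and with cells gated on Alx4 alone 30 rose (0.208%) and 13 fell (0.0901%) of 14434. The Alx1-alone fit, like the double-positive fit, estimated no spread of its own for single genes. The Alx1-alone and Alx4-alone fits differ in cell numbers, with 5077 and 3985 Alx1-positive but 1121 and 773 Alx4-positive cells, so the counts do not rank the genes. They also share cells with the double-positive comparison, and no difference between them was tested. Gata2 had a log2 change of 0.60 by Alx1 and 0.04 by Alx4, and Aldh1a2 0.89 and -0.05. Emx2 was at -1.01 by Alx1 and 0.17 by Alx4. Lhx6 was at -0.72 by Alx1 and -0.51 by Alx4, and Shox2 at -0.58 and -0.28. All 5 passed by Alx1, and of them only Shox2 passed by Alx4 (edgeR adjusted p = 0.0326). In Alx4-positive cells Alx1 itself was 722 against 684 and 518 against 507 CPM, 1.04-fold higher (adjusted p = 0.239).

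**Figure D5:**
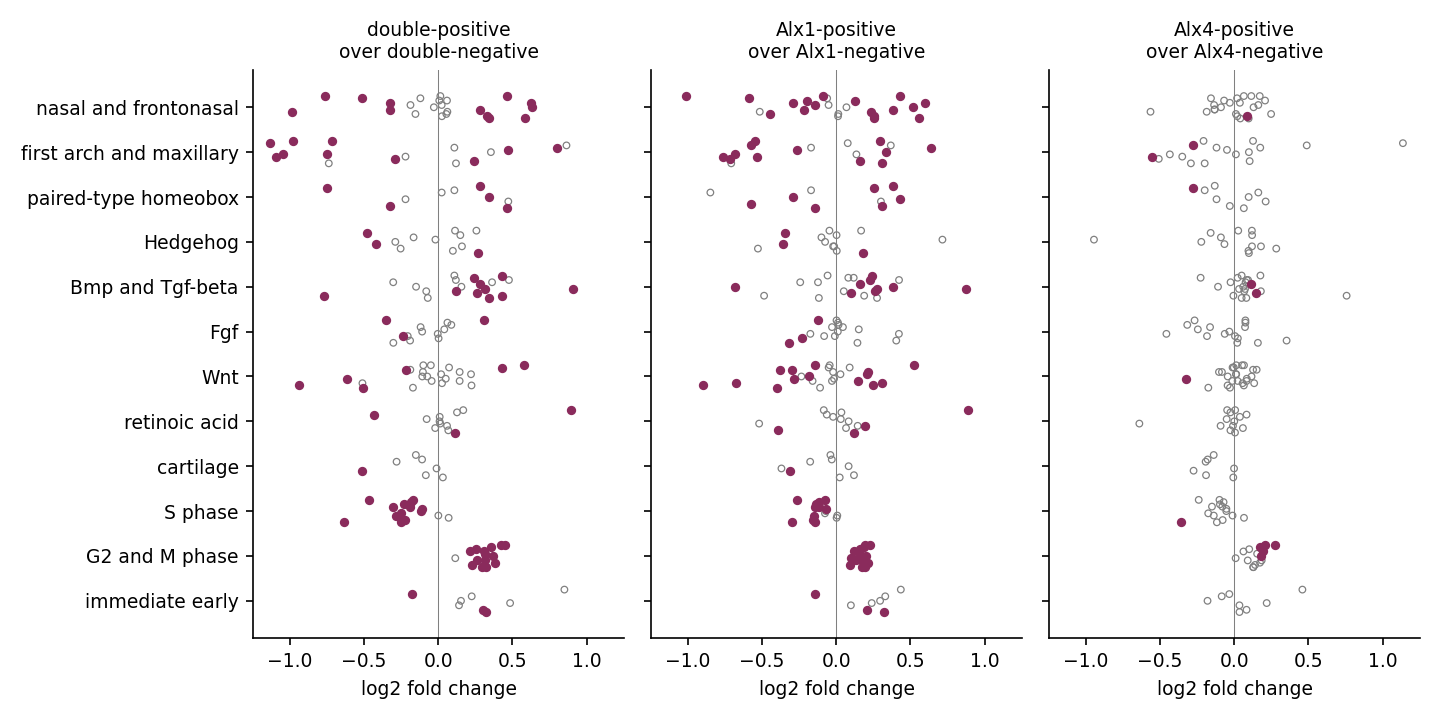
Log2 fold changes of the genes of 12 lists (rows) in mesenchyme-like cells gated on both transcripts, on Alx1 alone and on Alx4 alone after thinning to 3000 UMIs; each point is a gene, filled where the edgeR adjusted p is under 0.05. In double-positive cells first arch and maxillary genes reach -1.13 (Lhx6), 9 of 19 Bmp and Tgf-beta genes rise, 14 of 15 G2 and M phase genes rise and 13 of 15 S phase genes fall by edgeR (10 and 1 by DESeq2).

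Both genes were lower in the Crect lacZ library, a difference with no replicate check. In mesenchyme-like cells the Crect lacZ level was 0.737 times the wild-type level for Alx1 (0.728 to 0.745) and 0.794 times for Alx4 (0.764 to 0.825). Such gaps were common: 23.6% of 13068 genes were 1.25-fold or more lower in the Crect lacZ library, and the median ratio over these genes was 0.943. A lower ratio than that of Alx1 was found for 15.5% of the genes, and a lower one than that of Alx4 for 22.8%. Both were lower in the Crect lacZ library in 11 of 11 sub-clusters, and the interval lay below 1 in 11 for Alx1 and 9 for Alx4. The median gene was also lower there in each sub-cluster, at 0.904 to 0.936 times, and in sub-cluster 1 Alx4 (0.919) was no lower than the median gene (0.914). The lowest Alx1 ratio was 0.562 (0.532 to 0.593), in the nasal-like sub-cluster 9, where that of Alx4 was 0.839 (0.733 to 0.960). The lowest Alx4 ratio was 0.669 (0.573 to 0.780), in the maxillary-like sub-cluster 7, where that of Alx1 was 0.644 (0.617 to 0.672). Genotype, embryo pool and library cannot be told apart here.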

How the data were processed

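The authors deposited raw UMI counts per gene and barcode. Per the labels' protocols, libraries were made with 10x Genomics 3' v2 chemistry. Cell Ranger 2.0 and mm10 are named in the submitters' processing notes. No source used here states the barcode filter. Alx1, Alx4, the comparisons, markers and gene lists were chosen with earlier results of these data known. Genes were to be named by a rule: up to 3 called genes per list and direction with 20 or more CPM (0 met it), and the 8 most and 5 least similar genes for each member. Some genes that the rule names are not reported here.

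Cells needed 500 genes and at most 10% mitochondrial UMIs. Scrublet marked 170 wild-type cells. It marked only 2 Crect lacZ cells, so the 380 highest scores were taken there. Doublets were kept except as an alternative. Clusters came from scanpy 1.11.5 and leidenalg 0.10.2 (2000 variable genes, 30 components, resolution 1.0, and 20 components and 0.8 within mesenchyme). Within mesenchyme, the mean levels of the S phase list and of the G2 and M phase list were first regressed out of each gene. The rule that turned marker scores into names was set with the data in view.

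Counts were summed per library and group, giving 4 sums per fit and 1 residual degree of freedom, and tested with edgeR 4.0.16 (TMM, filterByExpr, library block). DESeq2 1.42.0 was an alternative, with doublet removal, a 5% mitochondrial limit, other scaling, filters, gates and thinning depths. The common biological coefficient of variation was 0.0617 between classes, 0.0296 between Pax- and Lhx-gated cells and 0.0175 between double-positive and double-negative cells. With library as a block, p-values measure how far the difference between groups of cells varied between 2 libraries. The spread of each gene was drawn toward that of all genes. It was wholly pooled in the double-positive and Alx1-alone fits (infinite prior degrees of freedom). Their p-values do not measure how a single gene varied between libraries. With 1 pool per genotype, the spread between pools of a genotype was not measured.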

Additional observations from a re-analysis of the deposited data

How the results depend on the processing

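The higher Alx1 and Alx4 levels in mesenchyme-like than in ectoderm-like cells kept their direction in all 9 alternatives each, at 7.45- to 13.4-fold and 4.57- to 6.42-fold, the highest with doublets removed. The Pax-gated excess kept its direction in 11 alternatives each, from 1.10- to 1.18-fold for Alx1 and 1.30- to 1.39-fold for Alx4. Without the library term it was no longer significant, at log2 0.19 (adjusted p = 0.9998) and 0.41 (adjusted p = 0.472). The 32 genes called at 2-fold between double-positive and double-negative cells became 0 without the library term, 1 with DESeq2 and 98 after thinning to 5000 UMIs. Genes past 2-fold numbered 20 in the wild-type and 13 in the Crect lacZ library alone, with no test. Gating on Alx4 alone, an alternative added after seeing the data, called 0 genes (690 higher and 528 lower at an unadjusted edgeR p under 0.05). The cause was not tested. The share of cells with both transcripts depends on depth: 14.8% and 10.5% at 3000 UMIs, 25.1% and 18.7% at 5000 and 55.0% and 53.1% without thinning, in the wild-type and Crect lacZ libraries. No paired analysis was possible between genotypes because each genotype has 1 library; the comparisons between groups of cells were made within libraries. With about 1 Alx4 UMI per cell, absence of Alx4 in a cell was not detectable at this depth.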
